A study of Mus musculus with 9 samples.

Results

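The genes described here are 10 that act in antigen presentation by MHC class I molecules: H2-K1, H2-D1, B2m, Tap1, Tap2, Tapbp, Psmb8, Psmb9, Psmb10 and Nlrc5. They were chosen by name, and their GENCODE M21 symbols were matched to the Ensembl identifiers of a table of 56398 features. All 10 were found, and all 10 passed the filter on low counts in each comparison. RNA sequencing measured them in 9 samples from BALB/c mice, which form 3 groups of 3. The AC group is colon tumours from mice injected with CT26 cells and given Astragalus and Curcuma phaeocaulis Valeton, mixed 2:1, at 6 g/kg daily. The model group is colon tumours from mice injected with the same cells and given saline daily, for which the labels also write 6 g/kg. The sham group is healthy colon. CT26 is a mouse colon carcinoma line from the BALB/c strain, so all 6 tumours derive from 1 cell line, and healthy colon is a mixed tissue rather than the cell of origin alone. The labels give neither the injection site nor the age and sex of the mice, and leave it unsaid whether a group's 3 samples are 3 animals. The p-values below therefore cover the variation among these 9 samples alone, and that variation could be technical.

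Class I molecules carry short peptides from inside the cell to its surface, where CD8 T cells and natural killer cells read them. The proteasome cuts proteins into peptides, and in cells exposed to interferon gamma the subunits Psmb8, Psmb9 and Psmb10 take the places of the constitutive catalytic subunits Psmb5, Psmb6 and Psmb7 to form the immunoproteasome. The transporter made of Tap1 and Tap2 moves peptides into the endoplasmic reticulum, where tapasin, the product of Tapbp, bridges the transporter to a heavy chain such as H2-K1 or H2-D1 paired with beta-2 microglobulin, the product of B2m. Nlrc5 is a transactivator recruited to class I promoters, and loss of this pathway is a known route by which tumours avoid T cells.

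The promoters of both heavy chain genes, of B2m and of Tap1 are printed because these genes differed among themselves in the tumours. In textbooks the heavy chain genes and B2m share a regulatory layout. Each line is the stretch of 250 bases before a RefSeq gene start in GRCm38.p6, on the strand of the gene. Capitals mark matches to the motifs searched. For 8 of the 10 genes RefSeq windows were matched; none was matched for Tap2 and Nlrc5. The reference genome comes from the C57BL/6J strain, whose H2 haplotype differs from that of BALB/c, so these letters are those of the reference and not of the mice studied. The windows lie at chr17:34000348-34000597 (minus strand) for H2-K1, chr17:35262844-35263093 (plus) for H2-D1, chr2:122147437-122147686 (plus) for B2m and chr17:34187306-34187555 (plus) for Tap1.
H2-K1: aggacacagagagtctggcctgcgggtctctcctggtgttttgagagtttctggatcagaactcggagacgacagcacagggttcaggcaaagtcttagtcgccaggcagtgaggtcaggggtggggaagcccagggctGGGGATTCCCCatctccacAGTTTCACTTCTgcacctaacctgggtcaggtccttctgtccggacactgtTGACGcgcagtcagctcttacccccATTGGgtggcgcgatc
H2-D1: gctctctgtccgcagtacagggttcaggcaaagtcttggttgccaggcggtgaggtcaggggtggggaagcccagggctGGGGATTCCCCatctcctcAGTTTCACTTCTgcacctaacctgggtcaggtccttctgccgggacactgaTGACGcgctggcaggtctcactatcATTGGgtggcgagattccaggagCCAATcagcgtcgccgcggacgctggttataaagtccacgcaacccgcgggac
B2m: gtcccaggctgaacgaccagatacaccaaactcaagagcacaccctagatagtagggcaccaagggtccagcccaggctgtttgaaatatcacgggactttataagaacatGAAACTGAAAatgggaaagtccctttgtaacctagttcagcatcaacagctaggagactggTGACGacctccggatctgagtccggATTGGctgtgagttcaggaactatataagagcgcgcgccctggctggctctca
Tap1: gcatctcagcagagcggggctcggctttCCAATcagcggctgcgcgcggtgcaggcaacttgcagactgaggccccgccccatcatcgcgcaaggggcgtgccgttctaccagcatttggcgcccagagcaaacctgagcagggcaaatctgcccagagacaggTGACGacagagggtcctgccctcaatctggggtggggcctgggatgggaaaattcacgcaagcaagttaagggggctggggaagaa

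Motifs were searched on both strands: CCAAT, the letters of the Y box, TGACG, the core of the X2 box, GAAANNGAAA, the core of an interferon-stimulated response element, and TTCNNNGAA, the letters of a gamma-activated element. The stretches GGGGATTCCCC, which has the letters of an NF-kB site, and AGTTTCACTTCT, which resembles an interferon response element on the other strand, were chosen after the sequences had been read. Both were copied from the H2-K1 window, so their match there was fixed in advance. H2-K1 and H2-D1 carried the same 4 elements in the same order, with GGGGATTCCCC at -111 and -171 from the start, AGTTTCACTTCT at -92 and -152, TGACG at -41 and -101, and ATTGG, which is CCAAT on the other strand, at -16 and -76. H2-D1 had a further CCAAT at -53, and so had the window of a second RefSeq start of H2-K1, at -6. B2m had GAAACTGAAA at -139, TGACG at -78 and ATTGG at -53. Tap1 had CCAAT at -222 and TGACG at -86, the reverse of the order in the heavy chain genes and B2m. The Tap1 window shares most of its bases with that of Psmb9 on the other strand, at chr17:34187331-34187580. TTCNNNGAA was found in 1 of the matched windows, that of Psmb8, as TTCCCAGAA at -97. Of 32851 windows of the same length, 33.8% held CCAAT, 17.8% TGACG, 7.02% TTCNNNGAA and 2.98% GAAANNGAAA, while 0.0304% held GGGGATTCCCC and 0.0274% AGTTTCACTTCT. These shares include the windows of H2-K1 and H2-D1 themselves. These matches describe letters and are not evidence of binding.

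Total counts ran from 15690038 to 23476056 per library, and each of the 10 genes had between 388 counts (Nlrc5) and 39607 counts (H2-D1) in every library. For the members with the fewest counts, such as Nlrc5 in sham colon, counting error alone is about as large as the spread between libraries. Levels below are TMM-scaled FPKM, which are the authors' deposited FPKM (reads scaled by gene length and by the library total) divided by a factor that aligns the bulk of genes between libraries. They can be compared between libraries, while comparisons between genes rest on the authors' gene lengths. Errors are SD over n = 3. Sham 1 stood apart from sham 2 and sham 3, with 893 CPM (counts scaled to a common library total and divided by the same factor) summed over 5 B cell markers against 111 and 54.2 CPM, and 89.4 CPM over 5 smooth muscle markers against 1180 and 1294 CPM. The sum over 10 epithelial markers was 1001 CPM in AC 3, 580 CPM in model 1, 196 to 294 CPM in the other 4 tumours and 21330 to 30650 CPM in sham colon, so tumours labelled colon held little colonic epithelial transcript. Single epithelial markers differed more than this sum. Epcam had 1289 counts in AC 3 and 957 in model 1, against 5 to 20 in the other 4 tumours. Vil1 had 576 and 347 counts against 2 to 16. Krt20 was more even, at 3429 to 7419 counts in every tumour. No marker was at 0 in all 3 libraries of a group, and Cdx2 and Ms4a1 were among those at 0 in some libraries. In bulk tissue, fewer cells of a type and less RNA per cell cannot be told apart.

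B2m was the most abundant of the 10 genes in every library, and H2-D1 or H2-K1 came next. By mean level B2m ranked 9 of 18957 genes in AC tumours, 6 in model tumours and 18 in sham colon. H2-D1 ranked 43, 31 and 69 and H2-K1 150, 117 and 128 in the same order of groups. Tapbp followed, at 61.2 to 73.7 TMM-scaled FPKM in AC tumours, 77.4 to 84.8 in model tumours and 120.3 to 126.9 in sham colon. The 3 immunoproteasome genes, both transporter genes and Nlrc5 lay between 11.9 and 39.0 TMM-scaled FPKM in all tumour libraries. In AC tumours their order was Psmb10, Psmb8, Tap2, Tap1, Psmb9 and Nlrc5, and of these neighbours only Tap2 with Tap1 and Psmb9 with Nlrc5 overlapped. In model tumours it was Psmb10, Tap1, Psmb8, Tap2, Psmb9 and Nlrc5, and each neighbour in that order overlapped the next. In sham colon Psmb10 reached 59.5 to 85.7, and Nlrc5 was the lowest of the 10, at 3.66 to 4.04 TMM-scaled FPKM.

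**Figure D1:**
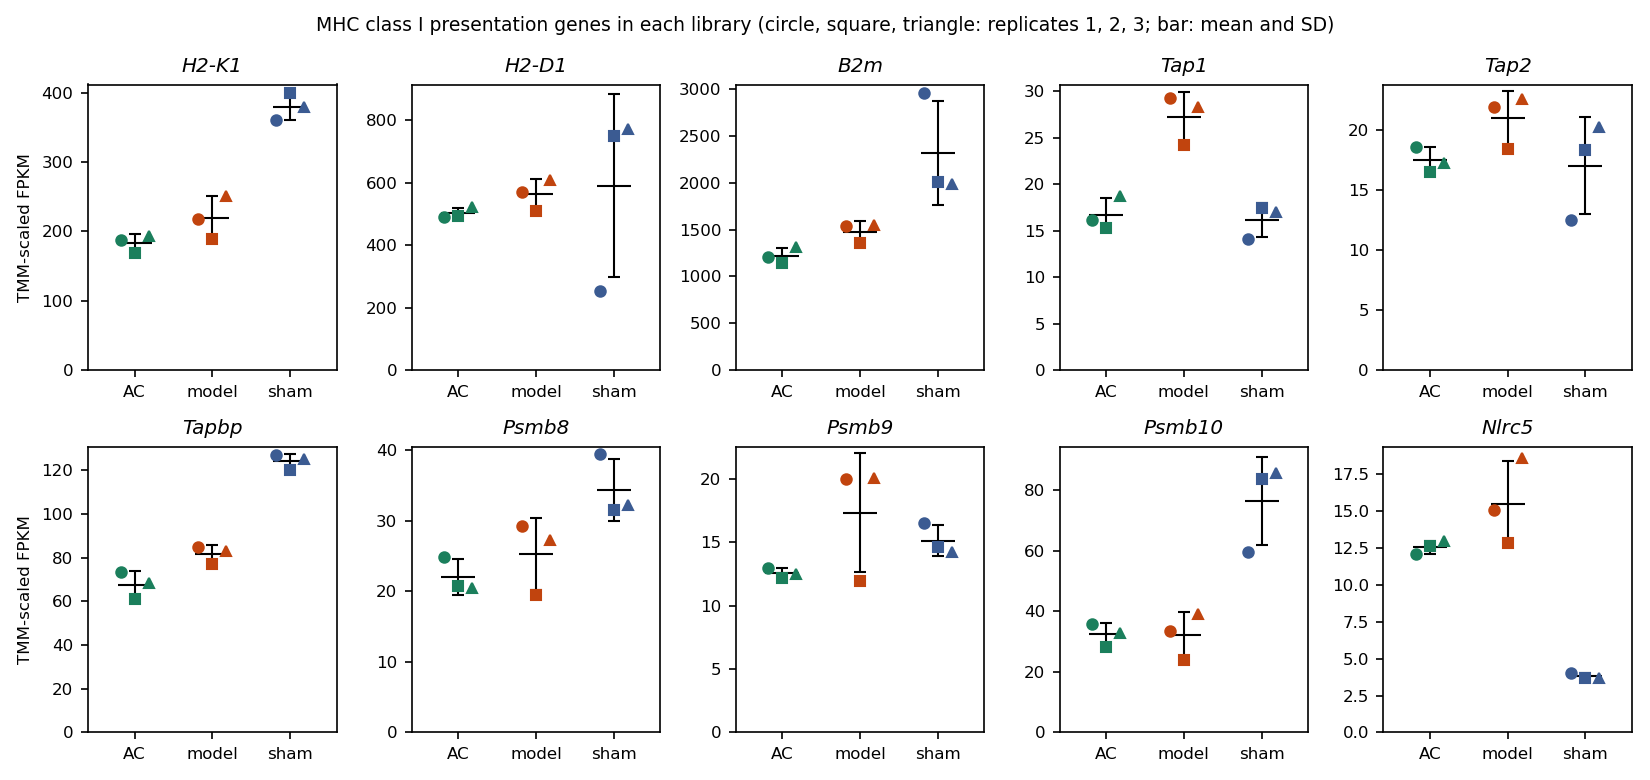
Each panel plots 1 gene, with TMM-scaled FPKM on the vertical axis and the AC, model and sham groups from left to right; symbols are the 3 libraries of a group and bars the mean and SD. Nlrc5 lay above 12 in every tumour and near 4 in sham colon, Tap1 stood highest in model tumours, and H2-D1 in sham colon split into 1 low and 2 high libraries.

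Model tumours were set against sham colon to show how the machinery differs between the injected tumour and normal tissue. Of the 10 genes, 2 rose (Nlrc5 and Tap1), 4 fell (H2-K1, B2m, Tapbp and Psmb10) and 4 did not pass the test (H2-D1, Tap2, Psmb8 and Psmb9), at an edgeR adjusted p under 0.05. Among the 18228 genes tested in this comparison 69.7 percent were called, 36.8 percent higher and 32.9 percent lower, so a share of 6 in 10 is no more than the background. The groups did not overlap for 7 of the 10 genes, against 76.9 percent of all genes. The median log2 fold change was -0.23 over the 10 genes and 0.12 over all genes tested.

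Nlrc5 (chr8:94434356-94527272, plus strand), the class I transactivator, had the largest change of the 10. Its level was 15.0, 12.9 and 18.6 TMM-scaled FPKM in model tumours, against 4.04, 3.66 and 3.69 in sham colon. The lowest model tumour was at more than 3 times the highest sham library. The log2 fold change was 2.04 (SE 0.170, edgeR adjusted p 0.000111), a 4.12-fold higher level, and the call held in all 13 alternatives.

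Tap1 (chr17:34187553-34197225, plus strand), a subunit of the peptide transporter, measured 29.2, 24.2 and 28.3 TMM-scaled FPKM in model tumours and 14.1, 17.4 and 17.0 in sham colon. The groups were well apart, with a log2 change of 0.78 (SE 0.140, edgeR adjusted p 0.00257) that was called in all 13 alternatives. Its partner Tap2 (chr17:34203527-34216321, plus strand) measured 21.9, 18.4 and 22.6 in model tumours against 12.5, 18.3 and 20.2 in sham colon, so the groups overlapped. The log2 fold change of Tap2 was 0.33 (SE 0.191, edgeR adjusted p 0.167), and 0.16 without sham 1. Of the Tap2 transcript sequence, 11.6% of stretches of 50 bases also occur in transcripts of another gene, mostly the antisense Gm15821, so reads may be shared there. Within each library the ratio of Tap1 to Tap2 FPKM was 1.33, 1.32 and 1.25 in model tumours and 1.13, 0.949 and 0.839 in sham colon. The groups did not overlap, and the exact two-sided permutation test gave p = 0.1, the smallest that 3 against 3 allows, or 0.164 adjusted over 18 ratio tests. This ratio, and those of H2-K1 and B2m to H2-D1, were added after the values had been seen.

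H2-K1 (chr17:33996017-34000347, minus strand), a classical heavy chain, was lower in model tumours. It measured 217.4, 189.5 and 251.4 TMM-scaled FPKM in model tumours and 361, 400.3 and 378.9 in sham colon, with no overlap. The log2 fold change was -0.78 (SE 0.156, edgeR adjusted p 0.00403), a 1.71-fold lower level. B2m (chr2:122147686-122153083, plus strand), the light chain shared by all class I molecules, measured 1539, 1354 and 1544 in model tumours and 2956, 2011 and 1983 in sham colon. Its log2 fold change was -0.64 (SE 0.226, edgeR adjusted p 0.0407). That call was lost without model 1 (adjusted p 0.076), model 2 (0.176) or model 3 (0.131), although all 3 model libraries lay below all 3 sham libraries. Without sham 1, the highest sham library, the log2 fold change was -0.40 (adjusted p 0.00151).

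H2-D1 (chr17:35262730-35267499, plus strand), the other classical heavy chain, behaved differently in the sham libraries. It measured 571.4, 508.5 and 606.9 TMM-scaled FPKM in model tumours and 254, 747.8 and 770.2 in sham colon, where sham 1 was at 0.335 of the mean of the other 2. The model tumours lay between the low and the high sham libraries, and the log2 fold change was -0.04 (SE 0.389, edgeR adjusted p 0.937). Without sham 1 the log2 fold change was -0.40 (adjusted p 0.00218). In sham 1 B2m was 1.48 times the mean of sham 2 and sham 3, while H2-K1 was at 0.926 of it, so the low value was not shared by H2-K1 and B2m. Tap2 (0.647), Psmb10 (0.702) and Tap1 (0.82) were also lower in sham 1, though less so than H2-D1. Tapbp, Psmb8, Psmb9 and Nlrc5 stood at 1.03 to 1.24 of that mean. The ratio of H2-K1 to H2-D1 was 0.381, 0.373 and 0.414 in model tumours and 1.42, 0.535 and 0.492 in sham colon. The groups did not overlap with or without sham 1 (exact permutation p = 0.1), and the difference in mean log2 ratio was -0.89, or -0.40 without sham 1. Of the stretches of 50 bases in the transcripts, 12.8% for H2-D1 and 9.63% for H2-K1 also occur in other class I genes, and reads were counted on a reference haplotype that BALB/c mice do not carry, so levels of H2 genes are uncertain.

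**Figure D2:**
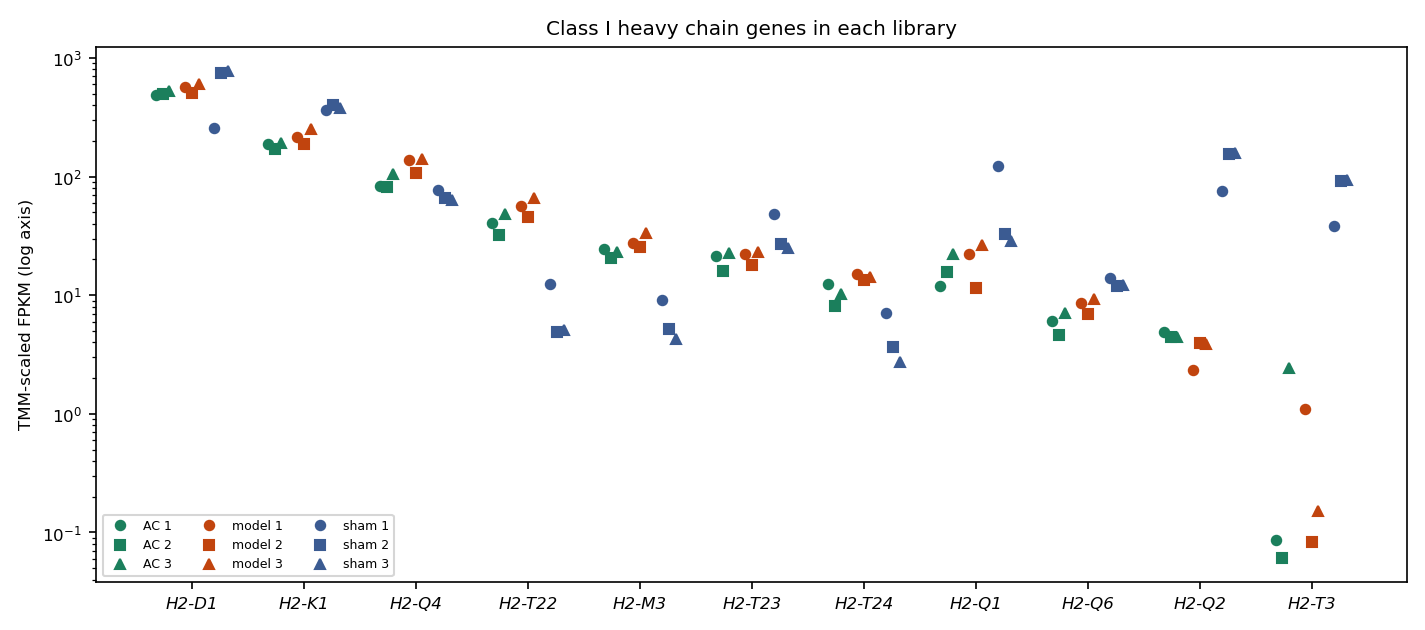
The plot gives TMM-scaled FPKM on a log axis for class I heavy chain genes in each library, with the AC, model and sham libraries from left to right within each gene. H2-D1 was low in sham 1 alone, H2-T3 and H2-Q2 were high in all 3 sham libraries, and H2-T22 and H2-M3 were higher in all 6 tumours than in any sham library.

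Tapbp (chr17:33915899-33929292, plus strand), the tapasin gene, measured 84.8, 77.4 and 83.3 TMM-scaled FPKM in model tumours and 126.9, 120.3 and 125.2 in sham colon. The groups were far apart relative to their spread, with a log2 change of -0.59 (SE 0.131, edgeR adjusted p 0.00656). For Tapbp 23.2% of its stretches of 50 bases are shared with other transcripts, mainly the antisense gene Gm19412. Of 6 other genes of loading and trimming in the endoplasmic reticulum, 2 rose, 1 fell and 3 did not pass, with a median log2 fold change of -0.06. The shares over all genes were 36.8 percent higher and 32.9 percent lower. Hspa5, a chaperone, rose (log2 fold change 1.27, SE 0.257), as did the trimming peptidase Erap1 (0.64, SE 0.151), whose call was lost without sham 2 (adjusted p 0.0546). Tapbpl, the tapasin-related peptide editor, fell (-0.89, SE 0.167, edgeR adjusted p 0.00308).

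Of the 3 immunoproteasome genes 1 was called, and differences between them were not tested. Psmb10 (chr8:105935735-105938444, minus strand), which replaces Psmb7, fell: it measured 33.5, 24 and 39.0 TMM-scaled FPKM in model tumours, against 59.5, 83.7 and 85.7 in sham colon. Its log2 fold change was -1.22 (SE 0.220, edgeR adjusted p 0.00256), and the call held in all 13 alternatives. Psmb8 (chr17:34197721-34201454, plus strand), which replaces Psmb5, measured 29.2, 19.5 and 27.3 in model tumours and 39.5, 31.5 and 32.2 in sham colon. It did not overlap between groups but missed the threshold (log2 fold change -0.43, SE 0.210, edgeR adjusted p 0.111; -0.23 without model 2). Psmb9 (chr17:34181987-34187764, minus strand), which replaces Psmb6, measured 20.04, 11.9 and 20.1 in model tumours against 16.6, 14.7 and 14.2 in sham colon. Model 2 lay below all sham libraries and the other 2 above them, and the log2 fold change of Psmb9 was 0.21 (SE 0.237, edgeR adjusted p 0.449). Over the left-out libraries it ran from 0.082 without sham 3 to 0.46 without model 2 (adjusted p 0.0576). In model tumours the highest level was 1.69 times the lowest for Psmb9, 1.63 times for Psmb10 and 1.5 times for Psmb8, and model 2 was the lowest library in each case. Exons of Psmb9 and Tap1 overlap by 212 bases on opposite strands, and 4.19% of the stretches of Psmb9 are shared with Tap1.

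Each induced subunit was also set against the constitutive subunit whose place it takes, within each library, which removes any library scaling. The ratio of Psmb10 to Psmb7 was 1.47, 0.981 and 1.65 in model tumours and 3.08, 4.66 and 4.15 in sham colon. All model tumours lay below all sham libraries, a difference of -1.55 in mean log2 ratio. The ratio of Psmb9 to Psmb6 was 0.816, 0.618 and 0.770 in model tumours and 0.540, 0.376 and 0.381 in sham colon. All model tumours lay above all sham libraries, a difference of 0.78. Both differences had an exact two-sided permutation p of 0.1, the smallest possible, and 0.164 adjusted over 18 tests. The ratio of Psmb8 to Psmb5 was 0.863, 0.730 and 0.908 in model tumours and 1.32, 0.888 and 0.956 in sham colon, where the ranges overlapped (difference -0.32, exact permutation p = 0.2; -0.15 without sham 1). Psmb5 is uncertain, because 54.1% of its stretches of 50 bases also occur elsewhere, mostly in the pseudogene Gm3375.

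**Figure D3:**
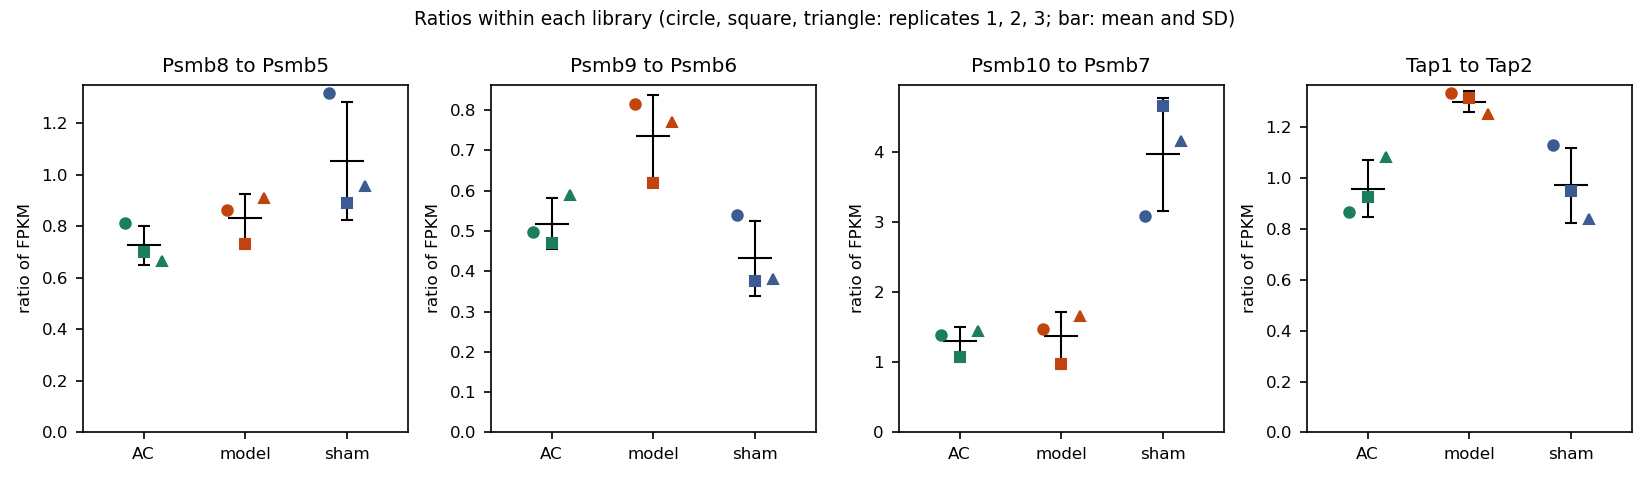
Each panel plots a ratio of 2 genes' FPKM within each library, with AC, model and sham from left to right, symbols for the 3 libraries and bars for the mean and SD. The ratio of Psmb10 to Psmb7 lay at 3.08 or above in sham colon and at 1.65 or below in every tumour, and the ratios of Psmb9 to Psmb6 and of Tap1 to Tap2 were higher in model tumours than in any AC tumour.

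Of the 3 constitutive subunits, Psmb7 rose (log2 fold change 0.31, SE 0.115, edgeR adjusted p 0.0490), Psmb6 fell (-0.59, SE 0.164, adjusted p 0.0161) and Psmb5 did not pass (-0.11, SE 0.164, adjusted p 0.574). The call of Psmb7 was lost in 9 of 13 alternatives, among them leaving out any model library or sham 2 or sham 3 (adjusted p at most 0.333), and that of Psmb6 was lost without model 2 and without scaling factors, where its log2 fold change was 0.02. Of 12 other genes of the proteasome core and its assembly, 1 rose, 5 fell and 6 did not pass (median -0.49). Among all genes 36.8 percent rose and 32.9 percent fell. Of the 3 genes of the PA28 activator, Psme2 fell and the other 2 did not pass. Psme2 measured 45.9, 35.4 and 44.7 TMM-scaled FPKM in model tumours and 205.1, 166.1 and 155.1 in sham colon (log2 fold change -2.05, edgeR adjusted p 0.000196).

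Cell type markers moved with these differences. The sum over 6 macrophage and monocyte markers was 874 to 1269 CPM in model tumours and 134 to 870 CPM in sham colon. The highest sham sum was that of sham 1, where Lyz2 had 10699 counts against 1766 and 1429 in sham 2 and sham 3. Of these 6 markers 5 rose and 1 did not pass, where 36.8 percent of all genes rose and 32.9 percent fell. The sum over 5 fibroblast markers was 1423 to 1681 CPM in model tumours and 92.7 to 161 CPM in sham colon. The 4 endothelial markers summed to 119 to 133 CPM in model tumours and 31.9 to 37.2 in sham colon, the 9 T and NK cell markers to 21.2 to 28.9 against 40.7 to 103, and the 5 B cell markers to 2.59 to 15.4 against 54.2 to 893. Of the T and NK cell markers 4 fell, 1 rose and 4 did not pass, where 32.9 percent of all genes fell and 36.8 percent rose. Ncr1, a receptor of NK cells, rose (log2 fold change 1.20, SE 0.334, edgeR adjusted p 0.0163), and Cd8b1, a chain of CD8, was at 1.36 (SE 0.549, adjusted p 0.0626). The 5 smooth muscle markers, all of which fell, summed to 7.57 to 15.5 CPM in model tumours and 89.4 to 1294 in sham colon, and the 5 dendritic cell markers to 26.4 to 38.3 against 9.05 to 19.3. Ptprc, found on all leukocytes, measured 84.1 to 106 CPM in model tumours and 56.2 to 298 in sham colon. The part of these cell types in the changes of Nlrc5, Tap1, H2-K1, B2m, Tapbp and Psmb10 was not tested.

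Among genes of the interferon gamma pathway, which induces class I genes, 1 of 10 rose, 6 fell and 3 did not pass in model tumours. Over all genes tested 36.8 percent rose and 32.9 percent fell. Both receptor chains fell: Ifngr1 measured 17.9 to 22.1 TMM-scaled FPKM in model tumours and 173.5 to 187.4 in sham colon (log2 fold change -3.14, SE 0.144), and Ifngr2 12.1 to 12.9 against 95.2 to 102.5 (-2.98, SE 0.127). The transcription factor Irf1 measured 24.9 to 31.4 in model tumours against 94.4 to 129.9 in sham colon (-2.05, edgeR adjusted p 9.98e-05). Ifng itself rose on few counts, with 17, 11 and 18 counts in model tumours and 4, 1 and 0 in sham colon (log2 fold change 2.37, SE 0.801, edgeR adjusted p 0.0345). That call was lost without model 2, model 3, sham 2 or sham 3 (adjusted p at most 0.116). Nlrc5 and Tap1 stood higher in the same tumours in which Irf1 and both receptor chains stood lower and Ifng stood higher. The part of this pathway in the levels of Nlrc5 and Tap1 was not tested.

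Of 9 factors that bind class I promoters or act beside Nlrc5, 2 rose, 3 fell and 4 did not pass. This was no more than the background of 36.8 percent higher and 32.9 percent lower. Nfya, a subunit of the factor that binds the CCAAT letters printed above, rose (log2 fold change 1.33, SE 0.181), and Atf1, of the family that binds the TGACG letters, rose by 1.17 (SE 0.191). Rfxank, a subunit of the X box complex, fell (-1.63, SE 0.232), while Rfx5, the DNA-binding subunit of that complex, was at 0.01 (SE 0.192, edgeR adjusted p 0.984). Ciita, the class II transactivator related to Nlrc5, went the other way from Nlrc5. It measured 1.01 to 1.33 TMM-scaled FPKM in model tumours and 2.15 to 5.28 in sham colon (log2 fold change -1.47, SE 0.411, edgeR adjusted p 0.0169), a call lost without model 2 or model 3 and without scaling factors (at most 0.101).

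Of the 18 non-classical and related heavy chains 6 were higher, 6 lower and 6 not called. That split is near the background, where 36.8 percent of all genes were higher and 32.9 percent lower. H2-T22, a ligand of some gamma delta T cells, measured 56.8, 45.7 and 65.6 TMM-scaled FPKM in model tumours and 12.4, 4.90 and 5.10 in sham colon (log2 fold change 2.90, SE 0.435). H2-M3, which presents formylated peptides, measured 27.8, 25.5 and 33.7 against 9.03, 5.18 and 4.28 (2.23, SE 0.331). H2-T3, the thymus leukaemia antigen of intestinal epithelium, measured 1.10, 0.08 and 0.15 in model tumours against 38.3, 91.7 and 93.7 in sham colon (-7.25, SE 1.02). H2-Q2 was likewise low in model tumours, at 2.34, 3.94 and 3.9 against 76.1, 155.8 and 159.2 in sham colon (-5.25, SE 0.370). H2-M2 fell on few counts, with 6, 3 and 0 counts in model tumours and 192, 30 and 32 in sham colon (-5.60, SE 1.20, edgeR adjusted p 0.00545). Both H2-T3 and H2-Q2 were lowest among sham libraries in sham 1, as H2-D1 was, whereas H2-Q1 was highest there, at 121.6 against 32.8 and 28.5 TMM-scaled FPKM. The sum of 16 H2 heavy chains was 1097, 942 and 1194 in model tumours and 1046, 1565 and 1561 in sham colon, so the groups overlapped through sham 1.

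AC tumours were set against model tumours to show what the herbal treatment was accompanied by. None of the 10 genes passed the test over all genes, and 0 percent of the 17137 genes tested were called. The lowest edgeR adjusted p of any gene was 0.103. At an unadjusted edgeR p under 0.05 stood 6 of the 10 genes, against 13.15 percent of all genes tested. In AC tumours 9 of the 10 log2 fold changes were below 0, against 48.6 percent of all genes, with a median of -0.27 against 0.01 over all genes. The groups did not overlap for B2m, Tap1 and Tapbp, 3 of 10 against 19 percent of all genes.

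Tap1 differed most. It measured 16.1, 15.3 and 18.7 TMM-scaled FPKM in AC tumours and 29.2, 24.2 and 28.3 in model tumours, against 14.1 to 17.4 in sham colon. The highest AC tumour lay well below the lowest model tumour, with a log2 change of -0.71 (SE 0.113), an unadjusted p of 0.000176 and an edgeR adjusted p of 0.127. The call depended on the method: Tap1 passed with DESeq2 (adjusted p 2.45e-05), without the filter on low counts (0.000964), without AC 3 (0.0137) and without both AC 3 and model 1 (0.0434), and its adjusted p over the alternatives ran from 2.45e-05 to 0.62. The ratio of Tap1 to Tap2 was 0.867, 0.928 and 1.08 in AC tumours and 1.33, 1.32 and 1.25 in model tumours. These groups did not overlap either (difference in mean log2 ratio -0.45, exact two-sided permutation p = 0.1, adjusted 0.164). DESeq2 called 305 genes in this comparison.

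B2m measured 1210, 1142 and 1312 TMM-scaled FPKM in AC tumours and 1539, 1354 and 1544 in model tumours, a log2 change of -0.28 (SE 0.0975, edgeR adjusted p 0.305). Tapbp measured 73.7, 61.2 and 68.3 in AC tumours and 84.8, 77.4 and 83.3 in model tumours (-0.27, SE 0.0930, adjusted p 0.295). Neither gene overlapped between the groups, and neither passed. H2-K1 measured 187.2, 169.4 and 193.2 in AC tumours and 217.4, 189.5 and 251.4 in model tumours (-0.26, SE 0.116, edgeR adjusted p 0.385). H2-D1 measured 490.9, 491.6 and 523 in AC tumours and 571.4, 508.5 and 606.9 in model tumours (-0.17, SE 0.0943, adjusted p 0.477). For both heavy chains the highest AC tumour lay above model 2. The ratio of B2m to H2-D1 was 2.46, 2.32 and 2.51 in AC tumours and 2.69, 2.66 and 2.55 in model tumours, close together although not overlapping (exact permutation p = 0.1).

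Psmb9 measured 13.0, 12.2 and 12.5 TMM-scaled FPKM in AC tumours and 20.04, 11.9 and 20.1 in model tumours, a log2 change of -0.47 (SE 0.191, edgeR adjusted p 0.357). The 3 AC tumours sat just above model 2 and far below model 1 and model 3. Set against Psmb6, the ratio was 0.496, 0.469 and 0.589 in AC tumours and 0.816, 0.618 and 0.770 in model tumours, which did not overlap (difference -0.50, exact permutation p = 0.1, adjusted 0.164). Psmb8 overlapped, at 24.9, 20.7 and 20.5 in AC tumours against 29.2, 19.5 and 27.3 in model tumours (-0.20, SE 0.156, edgeR adjusted p 0.601). Psmb10 was the exception in direction, at 35.9, 28.3 and 32.9 in AC tumours and 33.5, 24 and 39.0 in model tumours. Its log2 fold change was 0.01 (SE 0.177, edgeR adjusted p 0.990).

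Nlrc5 measured 12.1, 12.6 and 13.0 TMM-scaled FPKM in AC tumours and 15.0, 12.9 and 18.6 in model tumours, with AC 3 just above model 2 (log2 fold change -0.31, SE 0.129, edgeR adjusted p 0.366). Tap2 measured 18.6, 16.5 and 17.3 in AC tumours and 21.9, 18.4 and 22.6 in model tumours, with AC 1 above model 2 (-0.27, SE 0.103, adjusted p 0.335). AC tumours spread less than model tumours for 7 of the 10 genes. The spread was not tested, and its share over all genes was not taken. The highest over the lowest library was 1.07 against 1.69 for Psmb9 and 1.07 against 1.45 for Nlrc5. In both genes model 2 was the lowest model library. For Tap1 the spreads were alike, at 1.22 in AC and 1.21 in model tumours.

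No gene of the companion lists was called between AC and model tumours. Of 9 interferon gamma pathway genes tested, 6 did not overlap between the groups, beside 19 percent of all genes. Among them the log2 fold changes of Irf1 (-0.26), Irf9 (-0.29), Irf2 (-0.08) and Jak1 (-0.15) were below 0 and that of Ifngr2 (0.25) above. Ifng had 8, 9 and 6 counts in AC tumours and 17, 11 and 18 in model tumours, too few to pass the filter. H2-Q4 measured 82.5, 81.4 and 105.8 TMM-scaled FPKM in AC tumours and 137, 106.5 and 141.4 in model tumours (-0.51, SE 0.148, adjusted p 0.264), so that the highest AC tumour lay just below the lowest model tumour. The median log2 fold change was -0.32 over 16 non-classical heavy chains tested, 0.07 over the 3 constitutive catalytic subunits and -0.01 over 12 other core subunits.

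Some sums of cell type markers stood apart between AC and model tumours, and others overlapped. Ptprc measured 61.8 to 82.2 CPM in AC tumours and 84.1 to 106 in model tumours, and the 9 T and NK cell markers summed to 12.95 to 20.9 against 21.2 to 28.9 CPM. The 5 dendritic cell markers summed to 15.9 to 21.5 CPM in AC tumours and 26.4 to 38.3 in model tumours, and the 5 fibroblast markers to 1059 to 1299 against 1423 to 1681. None of these 4 sums overlapped between the groups. Of the dendritic cell markers, Itgax had a mean of 4.34 CPM in AC and 14.6 CPM in model tumours, while Zbtb46 overlapped. The 6 macrophage markers summed to 1119 to 1772 CPM in AC tumours and 874 to 1269 in model tumours, which overlapped. Sums also overlapped for B cell markers (1.38 to 3.72 in AC against 2.59 to 15.4 CPM in model tumours) and endothelial markers (97.0 to 131 against 119 to 133). The same held for smooth muscle markers (9.22 to 81.1 against 7.57 to 15.5). The part of these cells in the levels of Tap1, B2m and Tapbp, none of which passed the test, was not tested.

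**Figure D4:**
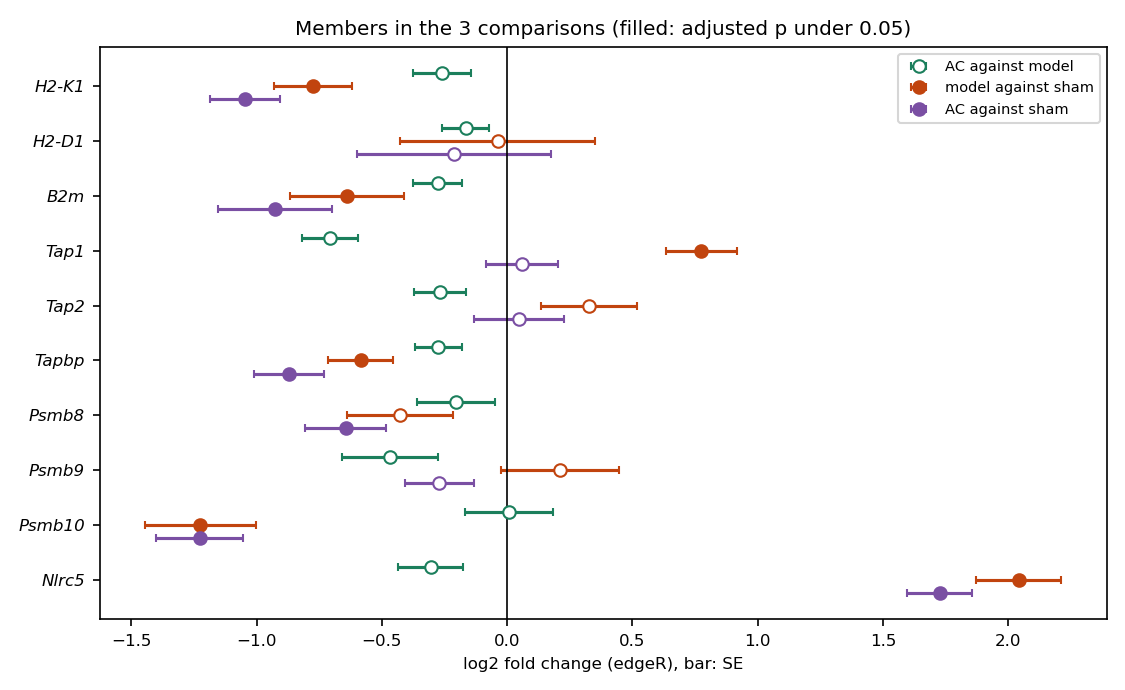
The plot gives the edgeR log2 fold change of each gene in the 3 comparisons, with bars for the SE and filled symbols for an adjusted p under 0.05. Against sham colon Nlrc5 stood far to the right in both tumour groups, whereas in AC against model tumours no symbol was filled and Tap1 lay farthest to the left, at -0.71.

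AC tumours were also compared with sham colon, the same 3 libraries used for model tumours, so the comparisons share their controls. Of the 10 genes, Nlrc5 rose, 5 fell (H2-K1, B2m, Tapbp, Psmb8 and Psmb10) and 4 did not pass (H2-D1, Tap1, Tap2 and Psmb9). Of 17832 genes tested 68.2 percent were called, 35.5 percent higher and 32.7 percent lower. The groups did not overlap for 7 of the 10, against 75.8 percent of all genes. The median was -0.46 over the 10 genes and 0.10 over all genes.

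Nlrc5 was at 12.1, 12.6 and 13.0 TMM-scaled FPKM in AC tumours against 4.04, 3.66 and 3.69 in sham colon, a log2 change of 1.73 (SE 0.129, edgeR adjusted p 9.68e-05), beside 2.04 for model tumours. H2-K1 stood at -1.05 (SE 0.140, adjusted p 0.000850), beside -0.78 for model tumours, and Psmb10 at -1.23 (SE 0.174, adjusted p 0.00109), beside -1.22. These 3 genes were called in all 13 alternatives. Tapbp was at -0.87 (SE 0.139, edgeR adjusted p 0.00176), B2m at -0.93 (SE 0.227, adjusted p 0.0104) and Psmb8 at -0.64 (SE 0.163, adjusted p 0.0117). Of these, B2m lost its call without AC 1 (0.057) or AC 2 (0.064), and Psmb8 without AC 2 (0.0579). Without scaling factors B2m, Tapbp and Psmb8 all lost their calls, and Psmb8 had a log2 fold change of 0.0024.

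Tap1, called in model tumours, overlapped colon in AC tumours, at 16.1, 15.3 and 18.7 TMM-scaled FPKM against 14.1, 17.4 and 17.0 (log2 fold change 0.06, SE 0.144, edgeR adjusted p 0.739). Tap2 was at 0.05 (SE 0.18, adjusted p 0.827), and with RLE scaling both signs turned (-0.05 and -0.06). H2-D1, at -0.21 (adjusted p 0.645), again depended on sham 1: without it the log2 fold change was -0.66 (adjusted p 4.05e-05). Psmb9 was at -0.27 (SE 0.138, edgeR adjusted p 0.123) and passed without sham 1 (0.0275). The ratio of Psmb10 to Psmb7, at 1.38, 1.07 and 1.45 in AC tumours, lay below all sham libraries (difference -1.60), and that of Psmb8 to Psmb5, at 0.812, 0.700 and 0.667, did so too (-0.52). The ratio of Psmb9 to Psmb6 overlapped with sham colon (0.28, exact permutation p = 0.3).

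In AC tumours 8 of 9 interferon gamma pathway genes tested fell against sham colon, where 32.7 percent of all genes did, and 1 did not pass, with Ifngr1 at -2.97 and Irf1 at -2.32. The 3 constitutive subunits gave 1 rise (Psmb7, 0.38), 1 fall (Psmb6, -0.54) and 1 not called, both calls lost without sham 2 or sham 3 and Psmb6 at 0.11 without scaling factors, and Psme2 was again the only 1 of 3 PA28 genes called (-2.16, SE 0.241). Of the 12 other core and assembly genes 7 fell, of the 6 loading and trimming genes 1 rose and 1 fell, and of the 9 promoter factors 2 rose and 3 fell. Among all genes in this comparison 35.5 percent rose and 32.7 percent fell. Of the 18 other heavy chains 4 rose and 7 fell, with H2-T22 at 2.42 (SE 0.441) and H2-T3 at -6.38 (SE 1.42). H2-T3 in AC tumours rested on AC 3, with 127 counts against 5 and 3 in AC 1 and AC 2; AC 3 was also the tumour with the most epithelial marker transcript.

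The differences from colon depend on how library sizes are scaled: the TMM factors were 1.13 to 1.19 in tumours and 0.709 to 0.8 in sham colon. Without scaling factors the median log2 fold change of all genes moved by 0.61 for model against sham and by 0.65 for AC against sham, and the share of calls that were higher moved to 67.3 percent from 52.8 percent, and to 68.2 percent from 52.1 percent. Relative to the median of all genes, 4 of the 10 genes lay above and 6 below in model against sham. In AC against sham 1 lay above and 9 below. All 10 lay below in AC against model, although Psmb10 was practically at the median, at -0.0022 from it with TMM. A scaling shifts all genes by nearly the same amount and this subtraction undoes the shift, so that these counts were alike under the 4 scalings by construction. In model tumours without factors, Nlrc5, Tap1 and Psmb10 kept their calls, the calls of H2-K1 (adjusted p 0.374), B2m (0.891) and Tapbp (0.889) were lost, Tapbp had a log2 fold change of 0.02, and Psmb8 one of 0.18. Tap2 (0.00313) and Psmb9 (0.0209) were then called.

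**Figure D5:**
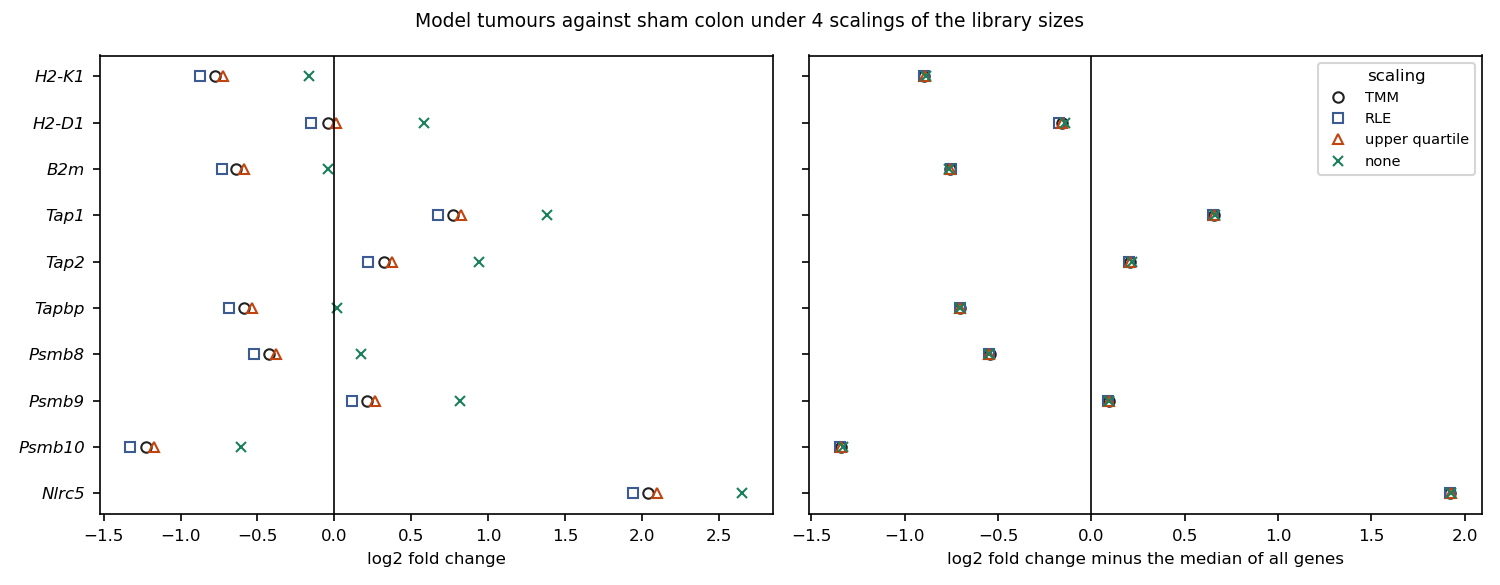
For model tumours against sham colon, the left and right panels plot each gene's log2 fold change under 4 scalings of the library sizes, as fitted and after subtracting the median of all genes. Without scaling factors all genes shift to the right, by 0.61 at the median, a shift that the subtraction removes by construction.

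Across all 9 libraries, likeness was measured as the root-mean-square difference of centred log2 levels, a description with no test. Among the 10 genes the closest pair was H2-K1 and Tapbp (0.134), followed by B2m and Tapbp (0.154), and Tap1 was nearest to Tap2 (0.243). Nlrc5 stood farthest from the rest, at 0.723 from Tap1 and 1.48 from Psmb10, its most distant pair. Of 11081 genes compared, the nearest to H2-K1 was Chpt1 (0.1), to H2-D1 Tesk1 (0.1), to B2m Psma2 (0.0790) and to Nlrc5 Twsg1 (0.108). The nearest to Tap2 was Tbc1d9b (0.0832), to Tapbp Alg6 (0.0654), to Psmb8 Psme1 (0.0931), to Psmb9 Selenow (0.143) and to Psmb10 Mrpl14 (0.107).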

How the data were processed

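Per the labels' protocols, RNA was isolated with Trizol reagent before VAHTS V6 library preparation. The authors deposited raw counts (featureCounts 1.5.0-p3, per the submitters' processing notes) and FPKM values, which follow from the counts, gene lengths and library totals. The build in those notes is mm9, yet implied gene lengths lay within 1% of GENCODE M21 exon lengths for 95.4% of genes with at least 20 counts in every library, so coordinates are GENCODE M21 positions on GRCm38. The sources used here give no aligner, read length or strand setting. For H2-K1, Tapbp and Psmb8 the implied lengths (2608, 3296 and 2736 bases) were shorter than the M21 exons (2938, 3628 and 3381), and FPKM rest on the authors' lengths.

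Each pair of groups was fitted separately in edgeR 4.0.16 under R 4.3.3 (TMM, filterByExpr, robust glmQLFit, glmQLFTest), with Benjamini-Hochberg adjustment over every gene tested and a threshold of 0.05. Ratios were compared by exact two-sided permutation over libraries, for which 0.1 is the smallest p. Alternatives were other scalings, no filter, DESeq2 1.42.0, all 9 libraries in 1 fit, a replicate block and leaving out libraries. The fit was also run on simulated data in which few genes changed, so that run does not bear on the choice of scaling. Its outcome is not reported here. No pair of libraries within a group was identical. Chi-square per degree of freedom, a measure of how far the counts of a pair differ, was 3.06 for sham 2 with sham 3. It was 100.5 for sham 1 with sham 2 and 118.8 for sham 1 with sham 3. Pairs of tumours within a group had 10.2 to 28.7. The text names all 10 genes, a set of partners (Psmb5, Psmb6, Psmb7, Ifng, Irf1, Rfx5 and Ciita among them) and, of each other list, up to 4 with the largest changes among those called. H2-Q1, H2-Q4, H2-M3, Cd8a, Cd8b1, Ncr1, Klrb1c, Krt20 and Lyz2 were picked as examples after their values were seen. So were Jak1, Irf2, Irf9 and Ifngr2 between tumours. Members, lists and tests were chosen with earlier results of these data known. Some genes of the lists are not reported here.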

Additional observations from a re-analysis of the deposited data

How the results depend on the processing

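Log2 fold changes are given throughout. Leaving out each library in turn, 5 to 7 of the 10 genes were called in model against sham (11677 to 15339 of all genes), 4 to 8 in AC against sham (10899 to 14360) and 0 to 1 in AC against model (0 to 569 of all genes, 569 without AC 3). The medians of the 10 genes then ran from -0.35 to -0.08, from -0.63 (without sham 1) to -0.38 and from -0.36 to -0.18. Between AC and model tumours Tap1 was the 1 member called without AC 3, without the low-count filter (105 genes called), with DESeq2 (305) and without model 1 and AC 3 together (94). Without scaling factors the medians were 0.38 in model against sham and 0.19 in AC against sham, and in AC against sham the median was -0.55 with both RLE scaling and DESeq2. Without factors H2-D1 was at 0.58, Tapbp at 0.021 and Psmb8 at 0.18 in model against sham, and H2-D1 at 0.45, Psmb8 at 0.0024, Psmb9 at 0.38 in AC against sham, where B2m (adjusted p 0.305) and Tapbp (0.196) lost their calls and Tap1 (0.00315) and Tap2 (0.00883) gained one. With RLE scaling Psmb8 was called in model against sham (0.0451), as it was with all 9 libraries in the fit (0.0446) and DESeq2 (0.0367), and Psmb9 was called in AC against sham with RLE scaling (0.0379) and DESeq2 (0.00212). Tap1 and Tap2 in AC against sham were at -0.047 and -0.058 with RLE scaling and with DESeq2, and ran from -0.11 to 0.16 and from -0.21 to 0.15 over the left-out libraries. H2-D1 in model against sham was at 0.011 with upper-quartile factors and 0.037 without the low-count filter, and ran from -0.40 to 0.093 over the left-out libraries. Psmb10 in AC against model ran from -0.17 to 0.17, its ratio to Psmb7 from -0.27 to 0.10, the ratio of Tap1 to Tap2 in AC against sham from -0.12 to 0.10, and that of B2m to H2-D1 in model against sham from -1.09 to 0.0005, the last without sham 1. Of the counts of called genes in the companion lists, 63 of 640 moved by over 1.5 times, mostly in lists of few genes. The cause of these moves was not tested.

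The labels state no pairing of samples by replicate number. Deviations of same-numbered libraries correlated at -0.49 to 0.41 across genes, and those of differently numbered libraries at -0.52 to 0.65. With 3 libraries a group, these values cannot show whether samples were paired. With the replicate block 5 of the 10 genes were called in model against sham (11774 of all genes), 0 in AC against model (0 genes) and 6 in AC against sham (11303 genes), H2-D1 was at 0.094 in model against sham, and B2m there missed the threshold (adjusted p 0.0601). With 3 libraries a group, ratios could not reach an exact p under 0.1, and shared sequence among H2 genes limits their levels at any depth.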
